A study of Mus musculus with 6 samples.

Results

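The genes described here are 6 matrix metalloproteinases (Mmp8, Mmp9, Mmp12, Mmp13, Mmp14 and Mmp19), 3 of their protein inhibitors (Timp1, Timp2 and Timp3) and the related membrane protease Adam8. They were taken from a fixed list of symbols matched to the Ensembl identifiers of the deposited count table. All 10 were found among 46983 identifiers, and all 10 passed the filter on low counts that left 16115 genes for testing. The RNA came from bone marrow derived macrophages, cells grown out of C57BL/6 mouse femur marrow over 7 days in culture medium with 20% L929 conditioned medium, a source of macrophage growth factor, and 10% heat-inactivated serum. Wild-type (WT) and AEG-1 knockout (AEG-1 KO) cells were compared, each in 3 libraries numbered by replicate and without any treatment of the cells. AEG-1 is the protein product of Mtdh. The labels give neither the mice's age and sex nor the deleted part of the gene. They do not say whether replicates were separate animals, so the p-values rest on the spread among libraries of one genotype, and that spread may be only technical.

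Matrix metalloproteinases (MMPs) are zinc enzymes that cut collagens, elastin and other matrix proteins, and they also shed or trim signalling proteins. Most are secreted as inactive precursors and gain activity when the propeptide is removed, while some, such as MMP14, sit in the membrane. Tissue inhibitors of metalloproteinases (TIMPs) bind the active site and block it. ADAM proteases are membrane-bound relatives that release the outer parts of surface proteins. In macrophages this family is known for opening paths through matrix, for matrix turnover after injury and for bone resorption by the related osteoclasts. The counts below are of RNA and say nothing of secretion, activation or enzyme activity.

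A gene was called where its p, from the quasi-likelihood test of edgeR with Benjamini-Hochberg adjustment across every gene tested, was under 0.05, and fold changes are AEG-1 KO relative to WT. Among the 10 genes the gelatinase gene Mmp9 fell in AEG-1 KO, the collagenase gene Mmp8 and the sheddase gene Adam8 rose, and 7 did not pass the test. Over all genes tested, 6.35% were called, 3.31% higher and 3.04% lower. The called differences were small: Mmp9 was at 0.746 of its WT level, Mmp8 at 1.26 and Adam8 at 1.15. The Adam8 call was lost whenever a library was left out, and the Mmp8 call in 3 of 6 such fits. The 3 WT and the 3 AEG-1 KO libraries did not overlap in 8 of the 10 genes, 7 of them higher in AEG-1 KO (Mmp8, Mmp13, Mmp14, Timp1, Timp2, Timp3 and Adam8) and Mmp9 lower. That pattern was also common elsewhere, in 26.8% of genes tested, 13.9% higher and 12.9% lower. The median log2 fold change of the 10 genes was 0.18, against 0.01 for all genes tested. In 9 of the 10 genes it lay above 0, as it did in 53.1% of tested genes with a symbol.

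**Figure D1:**
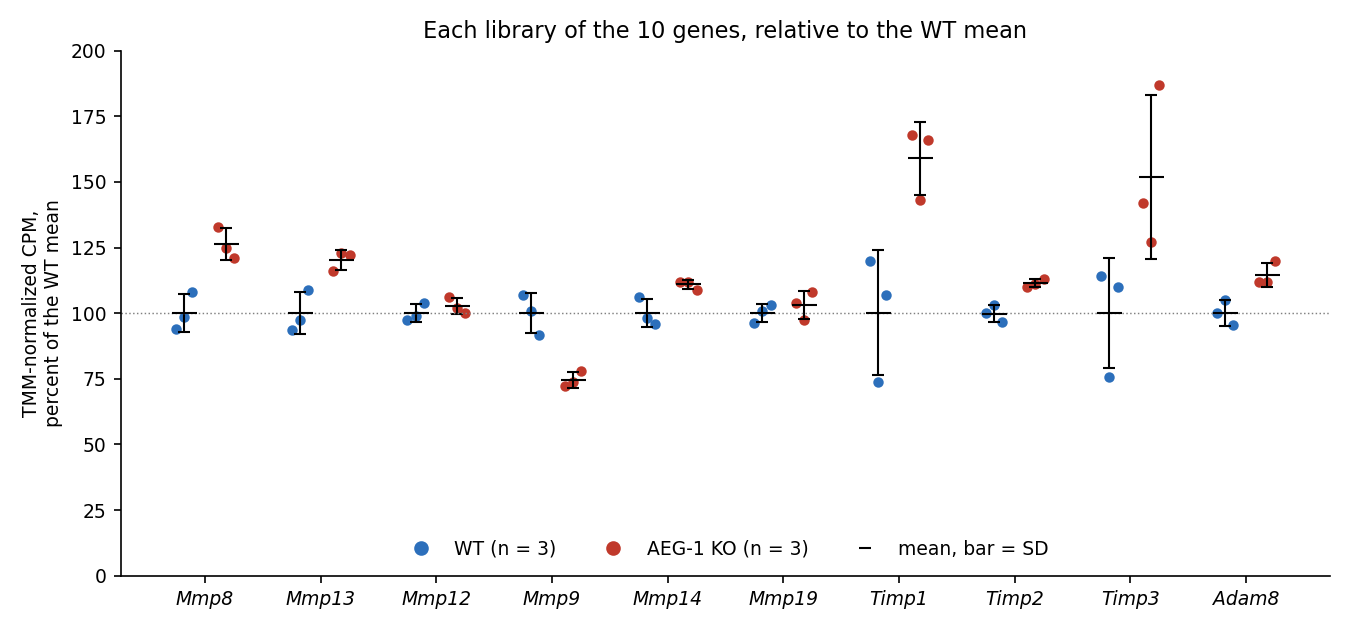
TMM-normalized level (CPM) of the 10 genes in each library, as a percent of the gene's WT mean (points; WT blue, AEG-1 KO red; black dash, mean; bar, SD, n = 3). Mmp9 lies at 72.1% to 77.9% in AEG-1 KO and Mmp8 at 121% to 133%, while Timp1 and Timp3, with few reads, spread most.

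Reads of the targeted gene followed the labels. Mtdh had 254 to 273 CPM (counts scaled to a common library size by the TMM method) in WT libraries and 0.333 to 0.517 CPM in AEG-1 KO libraries. Library totals ran from 42548170 to 58947230 counts, highest in WT library 2. Of 10 macrophage markers all were detected, led by Lyz2, Adgre1 and Marco at WT means of 9743, 4605 and 3477 CPM. They summed to 21200 to 21900 CPM in WT and 20600 to 21200 CPM in AEG-1 KO. Of the 10, Csf1r, Mertk, Cd14 and Mrc1 rose (log2 fold changes of 0.35 to 0.42; named after their values were seen) and Adgre1 and Marco fell (log2 fold change -0.19 and -0.62, adjusted p = 0.0238 and 0.000149), the first without a call when WT library 2, AEG-1 KO library 2 or AEG-1 KO library 3 was left out (adjusted p = 0.078, 0.125 and 0.0762). Over all genes tested, 6.35% were called. RNA of a whole culture does not separate fewer cells of a type from less RNA per cell.

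The collagenases cut the triple helix of fibrillar collagen. Mmp8, the collagenase best known from neutrophil granules, lies on chromosome 9 of GRCm38 from 7558456 to 7568485 (ENSMUSG00000005800). It had 33.3, 35 and 38.2 CPM in WT libraries 1 to 3 and 47.4, 44.3 and 43 CPM in AEG-1 KO libraries 1 to 3, from 1490 to 2134 reads per library. Every AEG-1 KO library lay above every WT library, with a gap wider than the SD of either group. The mean rose from 35.5 ± 2.49 to 44.9 ± 2.25 CPM (SD, n = 3), with 0.34 ± 0.06 as the log2 fold change (SE) and 0.0157 as the adjusted p of the edgeR quasi-likelihood test. The call was lost without WT library 2, AEG-1 KO library 1 or AEG-1 KO library 2 (adjusted p = 0.077, 0.0636 and 0.079), with log2 fold changes of 0.28 to 0.39 over the 6 fits that left out a library.

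Some neutrophil markers also rose. Of 22 markers 19 were tested, and 5 rose and 1 (Lcn2) fell, leaving 13 without a call, beside 6.35% called over all genes. The median log2 fold change of the list was 0.58. The count of rises was 2 without WT library 2 and 2 without AEG-1 KO library 2. The rises were in granule and calprotectin genes, S100a8, S100a9, Ngp, Ltf and Camp, with log2 fold changes of 0.49 to 0.65, named after their values were seen. Ngp, the largest, went from 23 ± 1.92 to 36.1 ± 2.7 CPM (SD, n = 3). S100a9 rose from 38.7 ± 5.52 to 60 ± 7.37 CPM (SD, n = 3; adjusted p = 0.0111, and 0.0503 and 0.0625 without WT library 2 and AEG-1 KO library 2). The summed level of the list was 440 to 445 CPM in WT and 491 to 533 CPM in AEG-1 KO, of which Csf3r, which macrophages also express, gave 243 ± 9.2 and 256 ± 5.6 CPM. No marker was at 0 in all libraries, but Elane, Mpo and Ctsg had at most 17, 13 and 5 reads in any. The part of these cells in the Mmp8 result was not tested.

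Mmp13, the main collagenase of mouse connective tissue and bone, lies in the same cluster of genes at 7272514 to 7283331 (ENSMUSG00000050578). Its level was 12.1, 12.6 and 14.1 CPM in WT libraries 1 to 3 and 15, 15.9 and 15.7 CPM in AEG-1 KO libraries 1 to 3. The AEG-1 KO values were all above the WT values. The log2 fold change of 0.27, with a 95% interval of 0.10 to 0.43, did not pass the test over all genes (adjusted p = 0.065). WT library 3 was the nearest to the AEG-1 KO libraries, and without it the difference passed (log2 fold change 0.32, adjusted p = 0.0265).

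Mmp12, the macrophage elastase, is also in that cluster, at 7344381 to 7369499 (ENSMUSG00000049723). It had 111, 113 and 118 CPM in WT libraries 1 to 3 and 121, 117 and 114 CPM in AEG-1 KO libraries 1 to 3. The groups overlapped. The log2 fold change was 0.04 with a 95% interval of -0.06 to 0.14 (adjusted p = 0.638), or 0.961 to 1.10 as a fold of WT. Its exons share 157 bases with Mmp1b on the other strand, which had no reads in any library.

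The chromosome 9 cluster holds 10 MMP genes within 427 kb, in the order Mmp13, Mmp12, Mmp1b, Mmp3, Mmp1a, Mmp10, Mmp8, Mmp27, Mmp20 and Mmp7. Detection changed from gene to gene along it. Mmp12, Mmp8, Mmp27 and Mmp13 had WT means of 114, 35.5, 18.2 and 12.9 CPM, Mmp10 had 0.61 CPM, and the other 5 had 5 reads or fewer in every WT library. Of these, Mmp3 had 4, 5 and 4 reads in WT libraries 1 to 3 and 8, 10 and 7 in AEG-1 KO libraries 1 to 3. It was under the filter on low counts and was not tested. Mmp27, a stromelysin-like MMP that starts 2.91 kb past the end of Mmp8 on the same strand, had 18.3, 17.2 and 19.1 CPM in WT libraries 1 to 3 and 23.9, 24.3 and 23.4 CPM in AEG-1 KO libraries 1 to 3. The groups did not overlap, and the log2 fold change was 0.39 ± 0.06 (SE, n = 3; adjusted p = 0.00558, and 0.00415 to 0.0441 over the 6 fits without 1 library). The level of Mmp27 per kb of exon was 0.563 ± 0.0342 of that of Mmp8 in WT and 0.584 ± 0.0274 in AEG-1 KO (SD, n = 3), and these ratios overlapped. Whether reads cross from Mmp8 into Mmp27 cannot be read from counts per gene. Mmp10, a stromelysin, had a log2 fold change of 0.53 (adjusted p = 0.18).

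**Figure D2:**
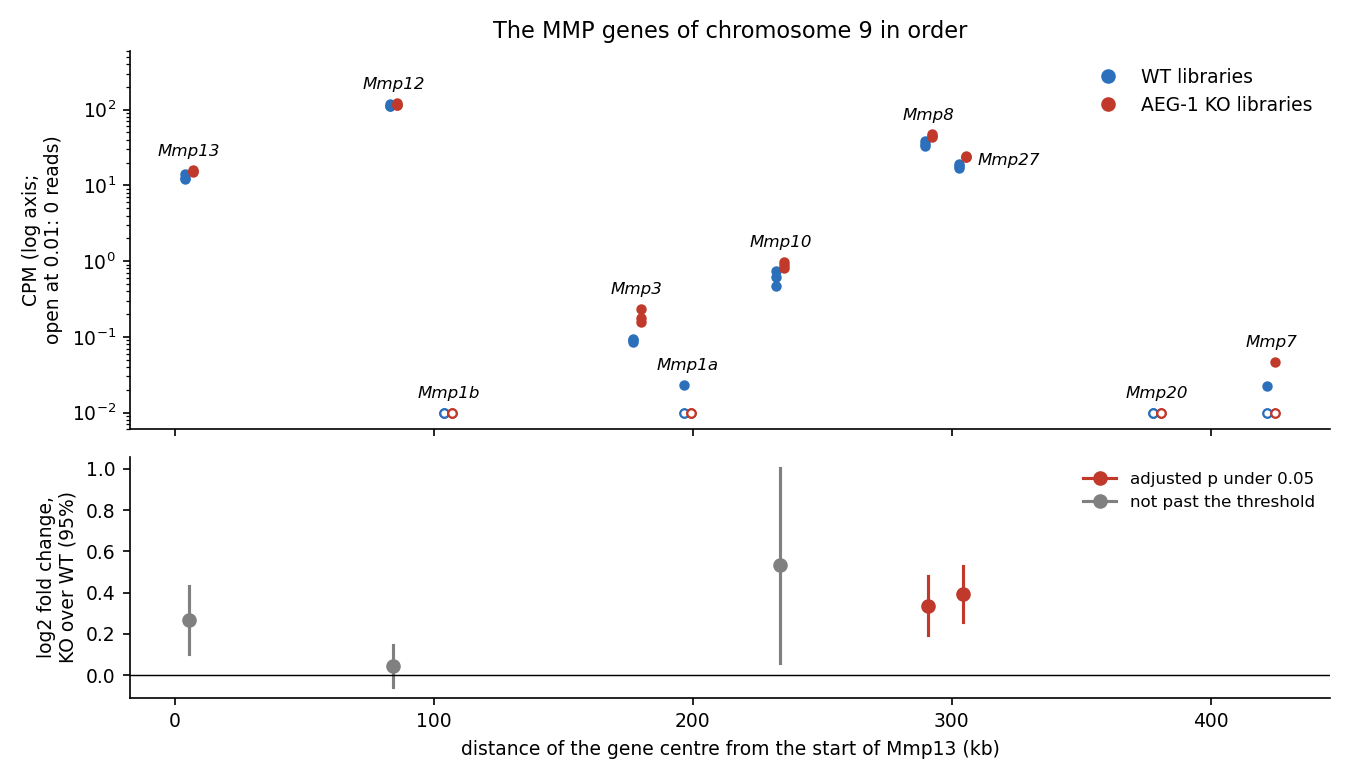
The 10 MMP genes of the chromosome 9 cluster by the distance of the gene's centre from the start of Mmp13 in kb. The upper panel gives CPM per library on a log axis (open points at 0.01 stand for 0 reads), and the lower panel the log2 fold change of the 5 tested genes with its 95% interval, where Mmp8 and Mmp27 are the 2 past the threshold.

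The promoters of the 3 cluster genes with the largest well-measured differences are given because Mmp8 and its neighbour Mmp27 both rose and Mmp13 is the collagenase gene with an AP-1 match. Mmp13 itself was not called (edgeR adjusted p = 0.065), and its AP-1 match was known when it was picked. They are RefSeq windows of 250 bases before to 50 bases after the annotated start on GRCm38.p6, each on the + strand, with matches to 4 short motifs in capitals. Windows were found for 8 of the 10 genes and for Mmp27, not for Mmp9 and Mmp19. The first is Mmp8 (chr9:7558179-7558478), the second Mmp27 (chr9:7571146-7571445) and the third Mmp13 (chr9:7272264-7272563).
Mmp8: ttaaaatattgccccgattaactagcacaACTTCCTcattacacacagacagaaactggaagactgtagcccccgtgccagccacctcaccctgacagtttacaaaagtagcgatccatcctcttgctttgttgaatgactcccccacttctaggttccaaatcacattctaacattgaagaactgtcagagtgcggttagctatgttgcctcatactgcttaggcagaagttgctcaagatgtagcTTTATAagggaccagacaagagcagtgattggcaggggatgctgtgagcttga
Mmp27: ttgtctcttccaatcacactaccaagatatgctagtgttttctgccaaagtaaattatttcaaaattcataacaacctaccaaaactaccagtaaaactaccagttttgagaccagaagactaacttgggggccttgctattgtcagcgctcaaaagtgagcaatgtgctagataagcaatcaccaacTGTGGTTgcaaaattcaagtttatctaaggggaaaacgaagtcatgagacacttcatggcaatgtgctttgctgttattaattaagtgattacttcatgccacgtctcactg
Mmp13: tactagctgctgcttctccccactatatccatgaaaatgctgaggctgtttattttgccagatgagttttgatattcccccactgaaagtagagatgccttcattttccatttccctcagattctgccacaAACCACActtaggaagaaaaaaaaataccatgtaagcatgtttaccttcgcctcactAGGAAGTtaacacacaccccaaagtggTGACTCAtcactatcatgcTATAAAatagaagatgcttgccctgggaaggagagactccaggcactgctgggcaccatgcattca

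The motifs were searched on both strands as TGANTCA for AP-1, AGGAAGT for ETS factors, TGTGGTT for RUNX and TATAAA for the TATA box. Of 32851 promoter windows of the same length, 7.81% hold the AP-1 letters, 9.35% the ETS letters, 5.27% the RUNX letters and 13.6% the TATA letters. Mmp13 held all 4, with the AP-1 letters TGACTCA beginning 35 bases before the start. Mmp8 held the ETS letters and, as the reverse complement TTTATA, the TATA letters. The latter begin 3 bases before the RefSeq start of the window and 30 bases before the GENCODE start of the gene. Mmp27 held the RUNX letters. Among the remaining genes, Mmp12 held ETS letters in 1 of its 2 windows and AP-1 and TATA letters in the other. Those AP-1 and TATA letters lie 2949 and 2997 bases past the GENCODE start of Mmp12. Timp1 held ETS letters, while the windows of Mmp14, Timp2, Timp3 and Adam8 held none of the 4. These are matches of letters and not shown to be bound.

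Some genes of the factors that read such motifs passed the test. Of 21 AP-1, ETS, RUNX and NF-kB factor genes, 20 were tested, and 2 rose and 1 fell, leaving 17 without a call. The median log2 fold change of the list was 0.06. Over all genes tested, 6.35% were called. Fos, the classical AP-1 subunit, rose from 122 ± 9.79 to 148 ± 7.34 CPM (SD, n = 3; adjusted p = 0.0381), and Fosl2 from 41.8 ± 0.52 to 48.1 ± 1.34 CPM (adjusted p = 0.0347). Ets2 fell from 299 ± 11.8 to 247 ± 12.7 CPM (adjusted p = 0.0133). Leaving out a library changed these calls. Fos kept its call only in the fit without WT library 1 (edgeR adjusted p from 0.00837 to 0.154 over the 6 fits). Fosl2 kept it in none of the 6 (adjusted p from 0.0543 to 0.171), with log2 fold changes of 0.18 to 0.22. Ets2 kept it in 5 of the 6 and lost it without AEG-1 KO library 2 (adjusted p = 0.0652).

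Mmp9, gelatinase B, degrades denatured collagen and basement membrane collagen. It is made by macrophages, neutrophils and osteoclasts. The gene lies on chromosome 2 at 164940780 to 164955850 (ENSMUSG00000017737). It had 54.5, 51.6 and 46.8 CPM in WT libraries 1 to 3 and 36.8, 37.6 and 39.7 CPM in AEG-1 KO libraries 1 to 3. The lowest WT library was above the highest AEG-1 KO library by more than either group's SD. The mean fell from 51 ± 3.91 to 38 ± 1.53 CPM (SD, n = 3), a log2 fold change of -0.42 ± 0.06 (SE; adjusted p = 0.00552). This call was kept in all 6 fits without 1 library (log2 fold change -0.49 to -0.39, adjusted p from 0.00112 to 0.0307).

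Other genes linked to the cells that make Mmp9 are given beside it. Lcn2, a neutrophil list member that is stored with gelatinase in granules and is also made by activated macrophages, fell from 58.2 ± 1.74 to 45.9 ± 3.7 CPM (SD, n = 3; adjusted p = 0.0129). It lost its call without WT library 2, AEG-1 KO library 2 or AEG-1 KO library 3 (adjusted p = 0.0656, 0.0682 and 0.0501). Lcn2 was the only fall called in the neutrophil list, where 5 genes rose. Of the 19 tested genes of that list, 17 had a log2 fold change above 0, as did 53.1% of tested genes with a symbol. Their median was 0.58. Of 11 osteoclast markers 7 were tested, and 2 rose, 1 fell and 4 did not pass, beside 6.35% called over all genes. The median log2 fold change of the list was 0.04. The fall was Acp5, tartrate-resistant acid phosphatase, from 131 ± 8.8 to 102 ± 3.57 CPM (SD, n = 3; adjusted p = 0.00597). Tnfrsf11a, the receptor of the osteoclast-inducing ligand RANKL, was at 127 ± 2.18 and 127 ± 3.01 CPM, and Nfatc1 at 51.4 ± 4.63 and 53 ± 2.39 CPM. The rises, named after their values were seen, were the fusion gene Dcstamp, with 1 to 7 reads in WT and 34 to 43 in AEG-1 KO libraries (adjusted p = 0.0016), and Atp6v0d2, from 10.5 ± 0.477 to 14 ± 1.44 CPM. The rises numbered 1 without WT library 2, AEG-1 KO library 2 or AEG-1 KO library 3. Summed, the osteoclast list gave 310 to 332 CPM in WT and 297 to 305 CPM in AEG-1 KO, and its part in the Mmp9 result was not tested.

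Mmp8 and Mmp9 had overlapping levels per length in WT and separate ones in AEG-1 KO. Levels are compared between genes as RPKM, here CPM per kb of the gene's merged exons. In WT the levels of Mmp12, Mmp8 and Mmp9 were 15.7 ± 0.501, 14.7 ± 1.03 and 14.4 ± 1.11 RPKM (SD, n = 3), with overlapping libraries between neighbours in that order. In AEG-1 KO they were 16.2 ± 0.466, 18.5 ± 0.927 and 10.7 ± 0.433 RPKM, and none of these 3 overlapped another. The ratio of Mmp8 to Mmp9 was 0.893, 0.99 and 1.19 in WT libraries 1 to 3 and 1.88, 1.72 and 1.58 in AEG-1 KO libraries 1 to 3. It was given no test, because the pair was chosen with its values known.

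Over all 10 genes, Adam8 was the most abundant per length in both genotypes, above 98.7% of tested genes in WT, followed by Mmp14 and Timp2. Below Mmp12, Mmp8 and Mmp9 came Mmp19, Mmp13, Timp1 and Timp3, the last above only 2.66% of tested genes in WT. In WT no other neighbours in the order overlapped. In AEG-1 KO the order was the same except that Mmp8 stood above Mmp12, and the libraries of Mmp9 and Mmp19 overlapped. Merged exon length counts every annotated isoform, 7237 bases for Mmp12 and 8144 for Timp3, and RPKM is lower than it would be with the length of a single transcript. The place of Mmp12 beside Mmp8 and Mmp9 depends on these lengths, 7237 bases from 7 transcripts for Mmp12 and 2425 from 1 for Mmp8. By mean CPM Mmp12 lay above Mmp8 and Mmp9 in both genotypes. The means were 114, 35.5 and 51 CPM in WT and 117, 44.9 and 38 CPM in AEG-1 KO.

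**Figure D3:**
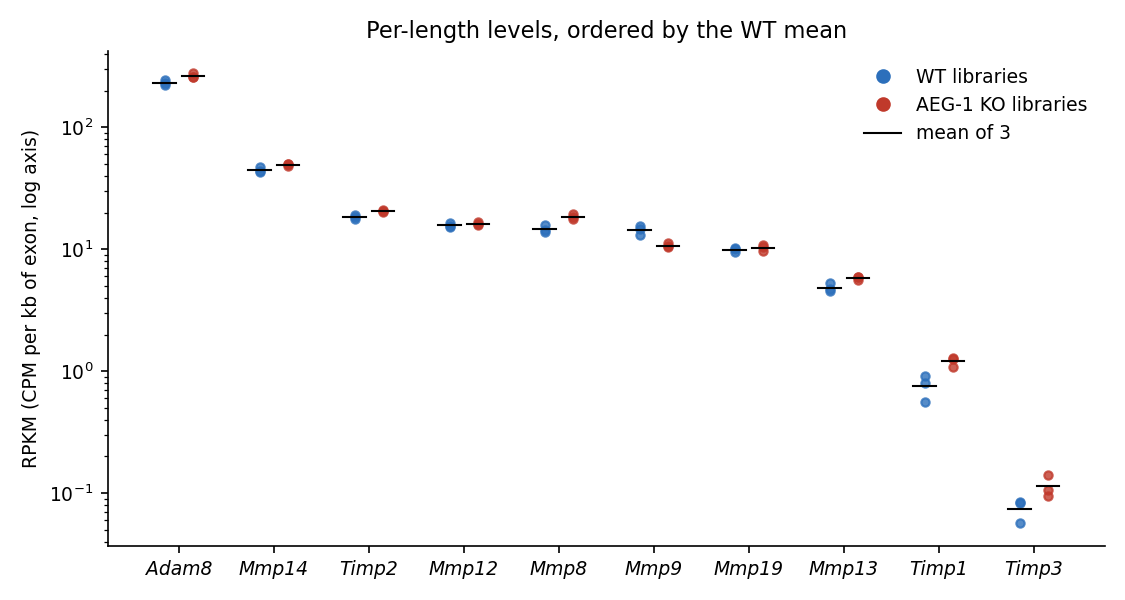
RPKM (CPM per kb of merged exon, log axis) of the 10 genes in each library, ordered by the WT mean (WT blue, AEG-1 KO red; black line, mean of 3). With merged exon lengths of 7237 bases for Mmp12 and 2425 for Mmp8, Mmp12, Mmp8 and Mmp9 lie together in WT and apart in AEG-1 KO.

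Mmp14, the membrane-type MMP that activates the MMP2 precursor with TIMP2 as a bridge, lies on chromosome 14 at 54431612 to 54445364 (ENSMUSG00000000957). It had 282, 262 and 255 CPM in WT libraries 1 to 3 and 299, 297 and 290 CPM in AEG-1 KO libraries 1 to 3. The groups did not overlap, but the log2 fold change of 0.15 (95% interval 0.04 to 0.25) did not pass the test (adjusted p = 0.0981). Mmp14 made up 42.8% ± 1.7 of the summed RPKM of the 6 MMPs in WT and 44.6% ± 0.489 in AEG-1 KO (SD, n = 3). Mmp2, its substrate, was at 9.11 ± 0.462 and 8.09 ± 0.426 CPM (log2 fold change -0.17, adjusted p = 0.238).

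Mmp19 is a secreted MMP that cuts basement membrane proteins, with its gene on chromosome 10 at 128790910 to 128800824 (ENSMUSG00000025355). It had 33.8, 35.4 and 36.1 CPM in WT libraries 1 to 3 and 36.6, 34.2 and 38 CPM in AEG-1 KO libraries 1 to 3. The groups overlapped, with a log2 fold change of 0.05 (95% interval -0.08 to 0.18; adjusted p = 0.679). This value is uncertain: 22.3% of its exon bases lie under Tmem198b on the other strand and the strand setting of the counting is not given in the sources used here.

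Of the inhibitors, Timp2 carried nearly all of the RNA. Timp2, on chromosome 11 at 118301069 to 118355740 (ENSMUSG00000017466), had 71.7, 74.1 and 69.2 CPM in WT libraries 1 to 3 and 78.7, 79.7 and 81.1 CPM in AEG-1 KO libraries 1 to 3. Those 6 values did not overlap between genotypes, and the log2 fold change was 0.16 (95% interval 0.05 to 0.26; adjusted p = 0.075). Timp2 was 95.7% ± 1.06 of the summed RPKM of the 3 TIMPs in WT and 94% ± 0.516 in AEG-1 KO (SD, n = 3). Per length, Mmp14 stood at 2.43 ± 0.133 times Timp2 in WT and 2.42 ± 0.075 times in AEG-1 KO.

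Timp1, the secreted inhibitor that binds the MMP9 precursor, lies on the X chromosome at 20870166 to 20874735 (ENSMUSG00000001131). It had 36, 29 and 31 reads in WT libraries 1 to 3 and 51, 41 and 50 in AEG-1 KO libraries 1 to 3, or 0.806, 0.496 and 0.717 CPM against 1.13, 0.963 and 1.12 CPM. Timp3, which stays bound to matrix and also blocks ADAM proteases, lies on chromosome 10 at 86300372 to 86349506 (ENSMUSG00000020044). It had 31, 27 and 29 reads in WT and 39, 33 and 51 reads in AEG-1 KO, or 0.694, 0.462 and 0.671 CPM against 0.865, 0.775 and 1.14 CPM. WT library 2, the deepest library, was the lowest for both genes. The log2 fold changes were the largest of the 10 genes and the least precise, 0.70 (95% interval 0.23 to 1.18; adjusted p = 0.0864) for Timp1 and 0.64 (0.11 to 1.17; adjusted p = 0.156) for Timp3. None of the 3 TIMPs was called by edgeR, DESeq2 or limma-voom, and all 3 had an unadjusted edgeR p under 0.05. Such a p was common over all genes tested: Timp3, with an unadjusted edgeR p of 0.0237, ranked 2456 of 16115 genes from the smallest p. Timp3 shares 21.3% of its exon bases with Syn3 on the other strand, which had 3 to 11 reads per library.

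Fibroblasts and endothelial cells are rich sources of TIMP1 and TIMP3, and their markers were low here. Of 16 stromal and endothelial markers 12 were tested, and 4 rose (Col1a2, Col3a1, Dcn and Tagln), 1 fell (Pecam1) and 7 did not pass. Over all genes tested, 6.35% were called. The median log2 fold change of the list was 0.54. The count of rises was 2 without WT library 2 or any of the AEG-1 KO libraries. Their summed level was 88.5 to 94.3 CPM in WT and 81.6 to 85.8 CPM in AEG-1 KO, most of it Pecam1, which macrophages express too (74.8 ± 2.08 and 60.1 ± 1.13 CPM). None was at 0 in all libraries. Acta2 and Tagln, the next most abundant, had WT means of 4.71 and 2.66 CPM. The part of these cells in the TIMP values was not tested.

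**Figure D4:**
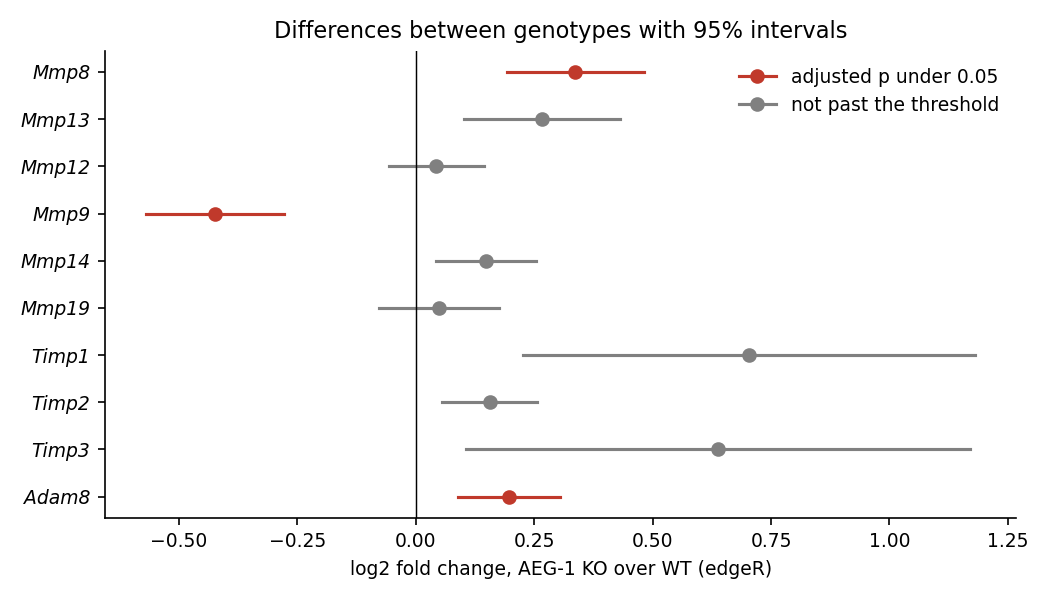
Log2 fold changes in AEG-1 KO relative to WT for the 10 genes with 95% intervals from the edgeR fit, in red where the adjusted p is under 0.05. Mmp9 is the only one below 0, and the intervals of Timp1 and Timp3 are the widest.

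Adam8, a surface protease of myeloid cells that sheds adhesion molecules and cytokine receptors, lies on chromosome 7 at 139978932 to 139992562 (ENSMUSG00000025473). It had 1076, 1127 and 1027 CPM in WT libraries 1 to 3 and 1208, 1204 and 1290 CPM in AEG-1 KO libraries 1 to 3, from 44420 reads upward. The groups did not overlap. The mean rose from 1077 ± 49.8 to 1234 ± 48.7 CPM (SD, n = 3), a log2 fold change of 0.20 ± 0.05 (SE; adjusted p = 0.0448). The call was near the threshold and was lost without each of the 6 libraries in turn. The adjusted p was 0.0824, 0.0624 and 0.0822 without WT replicates 1, 2 and 3 and 0.0869, 0.119 and 0.131 without AEG-1 KO replicates 1, 2 and 3.

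Taking the classes as sums of RPKM, the 6 MMPs stood at 5.46, 5.26 and 5.56 times the 3 TIMPs in WT libraries 1 to 3 and at 5.22, 5.11 and 4.95 times in AEG-1 KO libraries 1 to 3. The AEG-1 KO ratios were all lower than the WT ratios, with means of 5.09 and 5.43. The gap between 5.26, the lowest in WT, and 5.22, the highest in AEG-1 KO, was smaller than either SD (0.151 and 0.135). The ratio was given no test, because the genes were chosen with earlier results known. Mmp14 was the largest part of the MMP sum and Timp2 nearly all of the TIMP sum, in the percentages given above. The ratio of Mmp14 to Timp2 alone overlapped between genotypes, at 2.43 ± 0.133 in WT and 2.42 ± 0.075 in AEG-1 KO (SD, n = 3).

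The other family members were mostly under the filter on low counts or did not pass the test. Of 18 further MMP and TIMP genes 7 were tested, Mmp27 rose and 6 did not pass. Mmp1b and Mmp20 had no reads in any library, and 10 of the 18 had fewer than 10 reads in every library. Of 12 further ADAM genes 8 were tested, and the fall of Adam23, an ADAM without protease activity known from neurons, was the only call. It went from 1.35 ± 0.201 to 0.696 ± 0.0997 CPM (SD, n = 3; adjusted p = 0.0205), a log2 fold change of -0.95, and was called in 2 of the 6 fits without 1 library (adjusted p from 0.0227 to 0.0747, with no call without WT library 2 or any AEG-1 KO library). The abundant sheddases Adam10 and Adam17 had log2 fold changes of 0.14 and 0.05 (adjusted p = 0.112 and 0.666). Of 19 ADAMTS genes, which encode secreted relatives, 7 were tested and edgeR called none, DESeq2 none and limma-voom none, with 0 at an unadjusted edgeR p under 0.05. The smallest p belonged to Adamts7 and Adamts13, at 0.446 ± 0.0752 and 0.33 ± 0.125 CPM and at 0.353 ± 0.043 and 0.449 ± 0.187 CPM (WT, then AEG-1 KO).

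Some genes that activate, hold or clear these proteases moved. Of 28 such genes 20 were tested, and 4 rose and 1 fell, leaving 15 without a call, beside 6.35% called over all genes. The median log2 fold change of the list was 0.07. Plau, the urokinase that generates plasmin and so can start MMP activation, rose from 33.6 ± 1.73 to 42.6 ± 0.889 CPM (SD, n = 3), a log2 fold change of 0.34 (adjusted p = 0.00646). It was called in all 6 fits without 1 library. Serpine2, a serine protease inhibitor, rose from 2.62 ± 0.275 to 3.85 ± 0.316 CPM (adjusted p = 0.027). Cd44, the hyaluronan receptor that holds MMP9 at the cell surface, rose from 352 ± 10.2 to 422 ± 20.6 CPM (adjusted p = 0.0121).

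The fall in that list was Cd63, a tetraspanin that binds TIMP1, named after its values were seen, from 210.3 ± 17.4 to 176 ± 9.13 CPM (SD, n = 3; adjusted p = 0.0474). Serpine2, Cd44 and Cd63 lost their calls in 4, 2 and 4 of the 6 fits without 1 library, in each case including those without WT library 2 (adjusted p = 0.128, 0.0671 and 0.152) and AEG-1 KO library 2 (adjusted p = 0.124, 0.0961 and 0.172). The number of rises in the list was 2 without WT library 2 and 2 without AEG-1 KO library 2. Furin, which removes the propeptide of MMP14, had a log2 fold change of 0.26 (adjusted p = 0.176).

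Several genes rose in a list of matrix and cell surface substrates of these and related proteases. Of 21 substrate genes 19 were tested, and 9 rose, none fell and 10 did not pass, beside 6.35% called over all genes. The median log2 fold change of the list was 0.62. Called genes numbered 6 without WT library 2 and 6 without AEG-1 KO library 2. Thbs1 (thrombospondin 1), which ADAMTS proteases can cut, rose from 228 ± 10.8 to 535 ± 25.6 CPM (SD, n = 3), by 1.23 on the log2 scale (adjusted p = 3.67e-06). Tnc (tenascin C), an MMP substrate, rose from 2.6 ± 0.776 to 5.85 ± 0.199 CPM (adjusted p = 0.00356) and the collagen I chain gene Col1a2 from 1.24 ± 0.0889 to 2.37 ± 0.176 CPM (adjusted p = 0.00412). Spp1, osteopontin, which MMPs cleave, rose from 581 ± 11.2 to 700 ± 19 CPM (adjusted p = 0.00453). The list shares Col1a1, Col1a2, Col3a1 and Dcn with the stromal markers.

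**Figure D5:**
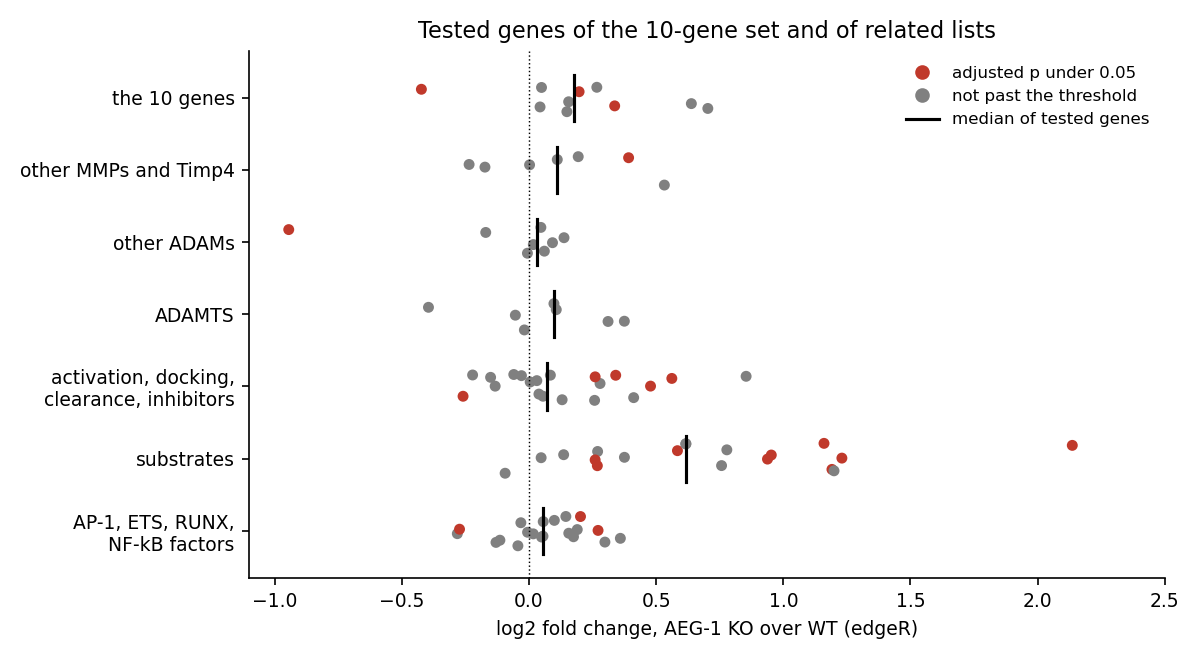
Log2 fold changes in AEG-1 KO relative to WT, gene by gene, for the 10-gene set and for 6 related lists (points; red, edgeR adjusted p under 0.05; black line, median of the tested genes). The substrate list has the highest median, 0.62, and the 10 genes lie between -0.42 and 0.70.

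Monocyte and lymphocyte markers were the remaining checks. Of 12 monocyte markers 5 rose (Ly6c2, Ccr2, Plac8, F13a1 and Nr4a1), 1 fell and 6 did not pass, beside 6.35% called over all genes. The rises, named after their values were seen, had log2 fold changes of 0.54 to 0.88. The median log2 fold change of the list was 0.29. Its summed level was 1600 to 1660 CPM in WT and 1320 to 1420 CPM in AEG-1 KO. Most of that sum was Itgal, which fell from 1437 ± 38.4 to 1138 ± 50.1 CPM (SD, n = 3; adjusted p = 0.00269), with Ms4a4c and Cx3cr1 next at WT means of 66.8 and 42.3 CPM. Of 10 lymphocyte markers 4 were tested and edgeR called none, as did DESeq2 and limma-voom. An unadjusted edgeR p under 0.05, common over all genes tested, was found for 3. The 10 markers summed to 12.8 to 13.6 CPM in WT and 14.7 to 16.5 CPM in AEG-1 KO. Cd4 gave most of this, with Cd79a and Ms4a1 below 1 CPM in WT. The part of either cell type in the results above was not tested.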

How the data were processed

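RNA of 6 macrophage samples was made into libraries with an Illumina TruSeq kit and sequenced on a HiSeq3000, per the labels' protocols. Each library has 1 column of raw counts by Ensembl gene in the table the authors deposited, per the file headers. The submitters' processing notes name edgeR 3.18.1, featureCounts 1.4.6-p4, Subread, FastQC 0.11.2 and cutadapt 1.9, and as builds GRCm38 and mm10, without their roles. Annotation release, strand setting and treatment of multiply mapped reads were not given in the sources used.

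Of 46983 identifiers 46488 matched GENCODE M21 (GRCm38). Genes passing filterByExpr (minimum count 10) entered the quasi-likelihood test of edgeR 4.0.16 (R 4.3.3) with TMM scaling and genotype as the only term, with Benjamini-Hochberg adjustment over all 16115 genes and a threshold of 0.05. Standard errors were derived by dividing the size of the log2 fold change by the root of F. RPKM uses merged exon length. Alternatives were other scalings and filters, DESeq2 1.42.0, limma-voom (limma 3.58.1), the replicate number as a block, a threshold of 0.01 and leaving out each library. The fit was tested on simulated data. Replicate pairs differed beyond counting noise (chi-square per degree of freedom 5.62 to 19.4). By BLAST+ 2.17.0 at 95% identity over 100 nucleotides, Mmp12, Mmp14, Mmp19 and Timp3 share a stretch with 2, 5, 2 and 1 other genes and the other 6 with none.

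The 10 genes and all lists were chosen with earlier results of these data known. Named were Mtdh, the 10 genes, up to 4 called genes of smallest adjusted p per related list (2 of smallest p where none was called) and the 3 most abundant per marker list; others named (such as Mmp2, Mmp10, Adam10, Adam17, Furin, Cd63, Elane, Mpo and Ctsg) were added after their values were seen. A further gene that this rule names is not reported here.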

Additional observations from a re-analysis of the deposited data

How the results depend on the processing

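The number of genes called over the whole table was 1023, and 3 of the 10 genes were among them. Over the fits that left out 1 library, the counts ran from 380 to 1092 genes and from 1 to 3 of the 10, with the lowest count over the table without AEG-1 KO replicate 2 and 441 without WT replicate 2. A threshold of 0.01 left 393 genes, and of the 10 only 1, Mmp9. With the replicate number as a block, 227 genes and 0 of the 10 were called (edgeR adjusted p = 0.0687 for Mmp9, 0.128 for Mmp8, 0.236 for Adam8 and 0.0747 for Mmp27). In the unpaired edgeR fit 8 of the 10 had an unadjusted p under 0.05. Such a p was common over all genes tested. In that fit Col1a1, with an unadjusted edgeR p of 0.038, ranked 3061 of 16115 genes from the smallest p. DESeq2 and limma-voom called 3 of the 10 each. No label says whether the numbers pair the samples. Libraries with the same number deviated from their group means with correlations of -0.274, -0.173 and -0.251, and no library correlated best with its own number. The highest correlations were 0.194, for AEG-1 KO library 3 with WT library 1, and 0.185, for AEG-1 KO library 1 with WT library 3. A shared day or batch was not tested. Other scalings, filters and tools gave 988 to 1266 genes and 3 of the 10. Across 138 refits of the 10 genes the direction was never reversed, and 125 stayed on the same side of the threshold. That total includes the genes that stayed uncalled. Of 14 refits each, the call was lost in 7 for Adam8, 4 for Mmp8 and 1 for Mmp9. Timp1 and Timp3 could not be fitted under the stricter filter, which removes them. Their 27 to 51 reads per library limit the precision of their values.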
